A study of Mus musculus with 37 samples.

Results

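Plat encodes tissue-type plasminogen activator, a secreted serine protease that cleaves plasminogen to the active protease plasmin. It was chosen as 1 gene of the 29294 named in any of the 4 RNA-seq tables of the series, as a dormant maternal mRNA and selected on its FPKM values in Hira mutant and control oocytes. The GV oocyte values of the Hira line are therefore given as a description, with no test. The RNA-seq data covered germinal vesicle (GV) oocytes, the fully grown oocytes held in meiotic arrest, and 2-cell embryos, all C57BL/6 mice. The ZH line carried Zp3-Cre, which is driven by an oocyte promoter and deletes in growing oocytes, together with floxed Hira. The CabZ line carried Zp3-Cre together with floxed Cabin1. Hira and Cabin1 are subunits of the complex that deposits the histone H3.3. The controls (ZH Het and CabZ Het) carried Zp3-Cre and 1 floxed allele, so they were heterozygous mutants and not wild-type oocytes, and the mutants (ZH KO and CabZ KO) carried 2. Each genotype of each line had 4 GV oocyte libraries, and each CabZ genotype had a further 4 of 2-cell embryos. For the CabZ embryos, Het and KO name the genotype of the female that gave the oocyte. The paper's RNA-seq methods do not state whether these embryos were fertilized or parthenogenetic. Parthenogenetic 2-cell embryos from wild-type GV oocytes injected with RNA for GFP (4 libraries) or Zscan4 (3 libraries, labelled Zscan4 OE) formed the other comparison. ATAC-seq, which maps open chromatin, covered 3 CabZ Het and 3 CabZ KO pools of GV oocytes. Ages are not given in the labels. The labels describe single cells and the study's methods pooled oocytes, so p-values measure only the spread between libraries, which may be partly technical.

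Oocytes store many mRNAs with short poly(A) tails during growth and translate them only once meiosis resumes. Plat mRNA is a classic example: its tail is lengthened at maturation, the protein is then made, and the mRNA is later destroyed. This control runs through the cytoplasmic polyadenylation element (CPE), a U-rich motif of the 3′ UTR that binds Cpeb1 and acts together with the polyadenylation signal. A separate and later wave of clearance removes maternal mRNAs around the time the embryo begins its own transcription.

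Plat lies on the plus strand of chromosome 8 at chr8:22757727-22782844 (GRCm38), a span of 25118 bp. The GENCODE M21 transcript ENSMUST00000033941.6 has 14 exons and 2525 bases, encodes 559 residues and ends in a 3′ UTR of 738 bases. The last 150 bases of this 3′ UTR held 2 CPEs of the form TTTTAAT, which began 125 and 89 bases before the transcript end, and 1 polyadenylation signal, AATAAA, which began 29 bases before it. Each is printed on the strand of the mRNA within 30 bases, with the motif in capitals, since these are the letters through which Plat is known to be controlled.
Plat CPE, chr8:22782709-22782738: gaactgtatgaTTTTAATaattgatgaata
Plat CPE, chr8:22782745-22782774: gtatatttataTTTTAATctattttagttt
Plat signal, chr8:22782804-22782833: ctgtacttaaatAATAAAttcagaggtatt

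Over the last 150 bases of the 3′ UTR of 17939 genes, 23.3% held a CPE (TTTTAT or TTTTAAT, mRNA strand only) and 79.2% held a signal (AATAAA or ATTAAA). Other dormant mRNAs described further on also held a CPE in that window. They are shown to let their elements be read beside those of Plat: cyclin B1 (Ccnb1), the spindle assembly factor Tpx2, and the mRNA decay adaptor Btg4.
Ccnb1 CPE, chr13:100778770-100778799, minus strand: ttgctgTTTTAATttatacatctgatatca
Tpx2 CPE, chr2:152894608-152894637, plus strand: gagatttcttgaTTTTATatatttggtttt
Btg4 CPE, chr9:51119748-51119777, plus strand: gtaaccagtctaTTTTATaaatctgttaaa
Btg4 CPE, chr9:51119797-51119826, plus strand: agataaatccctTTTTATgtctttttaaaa
The same window held no CPE in Dazl or Cnot7. The 3′ UTR of Mos is 126 bases long, shorter than the window, and held none over its whole length. It is therefore not among the 17939 genes. A match of letters is a description and does not show that the element was used.

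Levels are given as FPKM over the gene span, that is reads on the whole gene scaled to its length and to the depth of the library, with the constant added by the authors removed. Since introns are counted in the span, these values are far lower than values per kilobase of exon. The reads on genes came to between 5819312 and 21869857 per library, so the lowest Plat count, 80 reads in a CabZ Het 2-cell library, had a Poisson 95% interval of 63.4 to 99.6 reads. Intervals of this kind cover counting error only. Oocyte identity was clear in the GV libraries, where all 17 listed oocyte markers of the tables had reads and summed to between 17847 and 36717 CPM (counts scaled to library depth). Markers of granulosa and cumulus cells, which surround the oocyte, summed to between 92.2 and 189 CPM in the GV libraries. Most of that sum came from Cdh2, Cyp19a1 and Nr5a2, while the granulosa marker Foxl2 had at most 2 reads in a ZH library, Inha at most 81 in a GV library and Fshr at most 455. Cabin1 was at 0.119 ± 0.0312 (SD, n = 4) FPKM in CabZ Het GV oocytes and 0.0242 ± 0.0167 in CabZ KO GV oocytes, without overlap. Hira had between 0 and 14 reads per ZH library, which is too few to check the genotype labels. Zscan4d did not follow its label at the 2-cell stage: it ranged from 70.3 to 84.3 FPKM in the libraries labelled Zscan4 OE and from 69.4 to 149 in GFP, although near-identical Zscan4 copies can share its reads. The paper reported higher Zscan4 after injection than in the uninjected group, by qRT-PCR, immunofluorescence and western blot. These libraries do not test that result.

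Plat was among the most abundant mRNAs of control oocytes and was almost gone by the 2-cell stage. Its levels fell into 2 ranges, from 4.99 to 118 FPKM in the 16 GV libraries and from 0.40 to 4.10 FPKM in the 15 libraries of 2-cell embryos. By group mean the order ran from ZH Het GV (92.0), CabZ KO GV (57.5), CabZ Het GV (56.1) and ZH KO GV (19.2) to CabZ KO 2-cell (3.04), labelled Zscan4 OE (1.29), GFP (0.610) and CabZ Het 2-cell (0.455). Each group overlapped its neighbour in this order, except that every ZH KO GV library lay above every CabZ KO 2-cell library. The 4 tables were normalized separately, so an order across tables is given for orientation only.

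**Figure D1:**
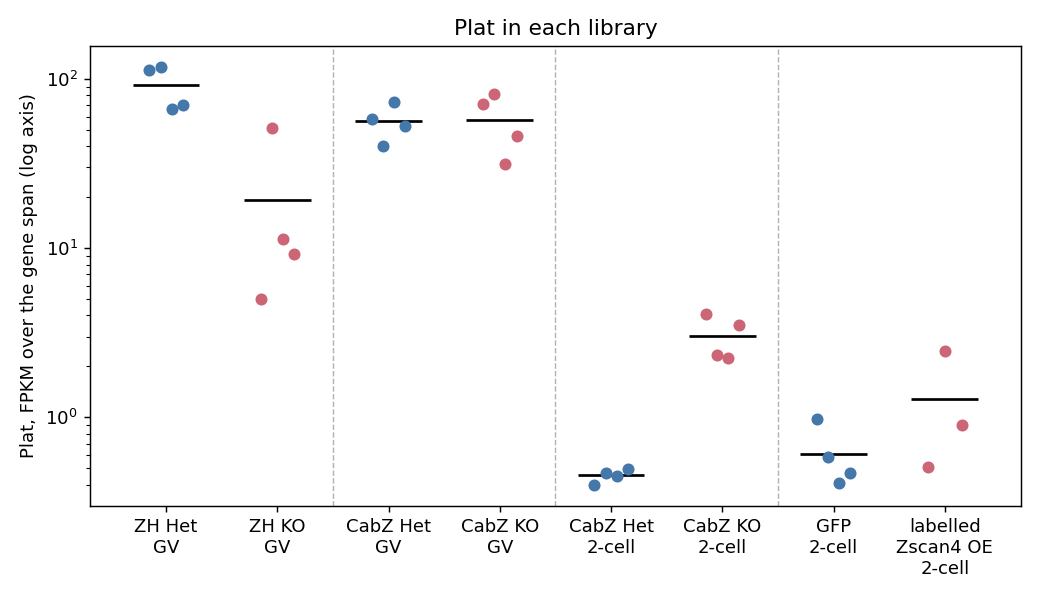
Plat level in FPKM over the gene span on a log axis, 1 point per library, with controls in blue, mutant or injected groups in red and a black bar at each group mean. Dashed lines separate the 4 tables, which were normalized separately, and the GV libraries lie between 4.99 and 118 FPKM while the 2-cell libraries lie between 0.40 and 4.10 FPKM.

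In ZH GV oocytes Plat was lower in the mutants. The 4 ZH Het libraries were at 113, 118, 66.3 and 70.4 FPKM (92.0 ± 27.4, SD, n = 4), from 27601 to 39502 reads each. The 4 ZH KO libraries were at 4.99, 51.2, 11.4 and 9.28 FPKM (19.2 ± 21.5, n = 4). The groups did not overlap, and 3 of the 4 mutant libraries lay far below all controls while replicate 2 came close to the lowest control. Non-overlap was common in this comparison, at 46.9% of the 5792 genes tested. The ratio of the means was 4.79-fold, and the fitted difference on the log2(FPKM + 1) scale was -2.67, the fourth lowest of all genes tested. Within the libraries, Plat ranked between 149 and 287 among 25053 genes in ZH Het and between 413 and 2362 in ZH KO.

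Replicate 2 of ZH KO decided part of the size of this difference. Without it the ratio of the means was 10.7-fold and the fitted difference -3.30, and leaving out any other single library gave values between -2.26 and -2.81. The library was not control-like over other genes: across the 1172 genes called without it, its median position was 79.6% of the way from the ZH Het mean to the mean of the other ZH KO libraries. For Plat that position was 23.8%, and 9.04% of those genes lay nearer to the control. Its summed 2-cell markers were at 1324 CPM, against 1512 to 2099 in the other mutants and 327 to 438 in ZH Het. Its summed oocyte markers were at 29049 CPM, within the 17847 to 30389 of the other mutants and below the 33822 to 36143 of ZH Het. Its granulosa marker sum, 161 CPM, was the highest of the 8 ZH libraries, which otherwise ranged from 92.2 to 135.

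Most oocyte markers were lower beside Plat in ZH KO, while most granulosa markers were higher by mean. Of 16 oocyte markers tested 14 lay lower in ZH KO, 5 of them called, and 1 was called higher, beside 7.20% of all genes called lower and 10.5% higher. Their median difference was -0.75, beside -0.04 for all genes. The granulosa markers Fshr and Inha were higher in ZH KO without overlap, Fshr at 6.41 to 17.8 CPM against 0.483 to 3.88 and Inha at 3.31 to 7.45 against 0 to 1.39, and were too low to test. The part of these markers in the Plat difference was not tested.

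The 5 genes most like Plat over the 16 GV libraries were found by Pearson's r of log2(FPKM + 1), with each library taken as its difference from the Het mean of its line, among 1500 other genes. They were the predicted genes Gm38025 and Gm6768, the X-linked glucose-6-phosphate dehydrogenase G6pdx, the uncharacterized AU022751, and Gja4, which encodes connexin 37, the oocyte's gap junction protein. Each had r = 0.97 over all 16 libraries. In the ZH line alone, where the Het and KO libraries stand apart and set most of the value, r ranged from 0.97 to 0.99 over 8 libraries, and in the CabZ line alone from 0.64 (AU022751) to 0.95 (G6pdx). Because these libraries chose them, their lower ZH KO means and the order of the libraries are a description that the choice builds in. AU022751 was at 304 ± 69.6 FPKM in ZH Het and at 16, 94.2, 36.1 and 27.8 FPKM in ZH KO. Gja4 was at 166 ± 28.3 FPKM in ZH Het and at 25.2, 70.9, 33.0 and 43.6 FPKM in ZH KO. G6pdx was at 22.9 ± 4.96 FPKM in ZH Het and at 4.06, 10.5, 8.20 and 5.51 FPKM in ZH KO.

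**Figure D2:**
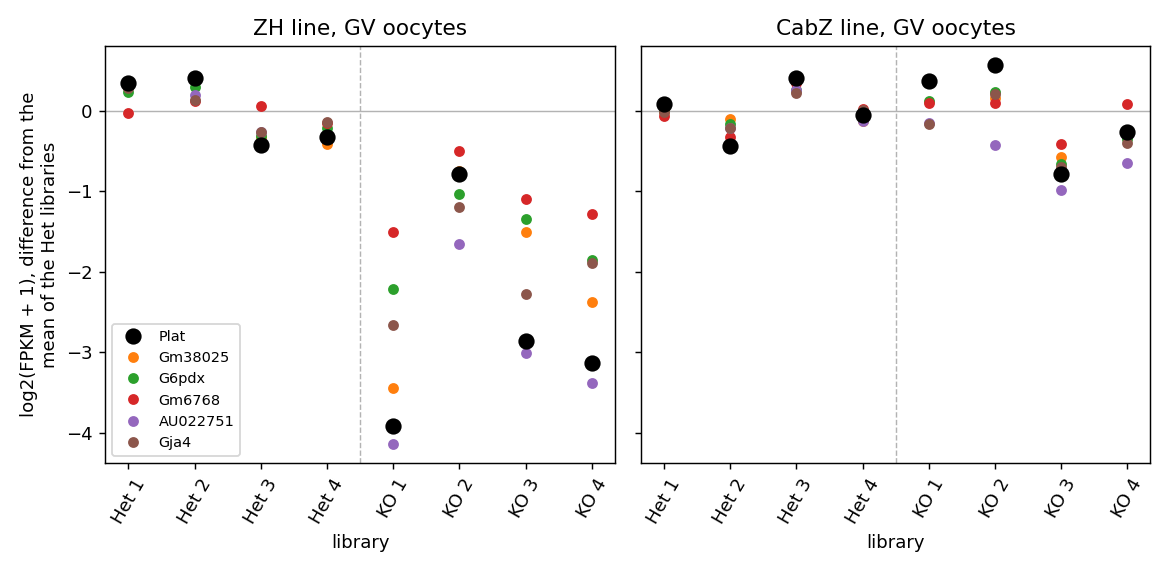
Difference of log2(FPKM + 1) from the mean of the Het libraries of the same line, for Plat (black) and the 5 genes most like it, in each ZH library (left) and CabZ library (right). In ZH KO replicate 2 Plat lies at -0.78, against -3.91, -2.86 and -3.13 in the other mutants, and in CabZ KO Plat lies between -0.79 and 0.57.

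Loss of Cabin1 did not shift Plat detectably at the same stage. CabZ Het GV libraries were at 58.2, 40.3, 73.1 and 52.9 FPKM (56.1 ± 13.6, n = 4), and CabZ KO GV libraries at 71.1, 81.8, 31.3 and 45.8 FPKM (57.5 ± 23.1, n = 4). The mutant libraries held both the highest and the lowest value, and the groups overlapped fully. The difference was -0.03 on the log2(FPKM + 1) scale (SE 0.29, limma adjusted p = 0.96), with a 95% interval from -0.67 to 0.62, or from 0.628-fold to 1.53-fold. A change within this interval was not detectable with 4 libraries a group. The granulosa marker sum was higher in CabZ KO (143 to 189 CPM) than in CabZ Het (100 to 119), with Fshr at 27.8 to 49.9 CPM against 0.561 to 1.23. The rest of the list moved in both directions. By mean, Cyp19a1, Kitl, Nr5a2, Inhba and Nr2f2 were higher in CabZ KO, and Cdh2, Inha, Star, Cyp11a1 and Gja1 were lower. The part of these markers in the values of Plat was not tested. In this comparison 2.90% of the 6339 genes tested were called in either direction. Whether the ZH and CabZ differences themselves differ was not tested, because the ZH value chose the gene and the tables were normalized separately.

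At the 2-cell stage Plat was low in both CabZ genotypes, and higher in the mutants. The 4 CabZ Het embryo libraries were at 0.40, 0.471, 0.449 and 0.498 FPKM (0.455 ± 0.0412, n = 4), from 80 to 103 reads each. The 4 CabZ KO embryo libraries were at 4.10, 2.33, 2.23 and 3.52 FPKM (3.04 ± 0.916, n = 4), from 355 to 602 reads each. All mutant libraries lay above all controls, and the count of the highest control library (95% interval 84.1 to 125 reads) was well below that of the lowest mutant library (319 to 394 reads) in spite of its greater depth. The ratio of the means was 6.70-fold. On the log2(FPKM + 1) scale, which understates changes of low genes, Plat rose by 1.45 in CabZ KO (SE 0.19, 95% interval 1.01 to 1.88, limma adjusted p = 0.0004). Plat passed the filter for testing, a mean of 1 FPKM, only through the CabZ KO libraries, as its CabZ Het mean lay below it. Its adjusted p here, and its percentile and rank given below, therefore hold only among genes that passed this filter. The call held with each library left out, with values from 1.33 to 1.55. An exact permutation test of the 8 libraries gave p = 0.0286, the smallest this design allows.

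Many genes moved in this comparison, and the rise of Plat is to be read against that background. Of the 7798 genes tested 37.4% were called, 16.9% higher and 20.4% lower, and 51.0% did not overlap between the groups. Plat stood at percentile 90.2 of all fitted differences and ranked 752 of the 1320 genes called higher. The split between directions depended on the scaling: with the libraries shifted to the same median, 1757 genes were called higher and 1126 lower, the median over all genes was 0.13 in place of -0.11, and the difference of Plat became 1.69.

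The loss between the stages was deep. Plat in CabZ Het 2-cell embryos stood at 0.810% of its CabZ Het GV level, a 124-fold lower mean. Of the 1932 genes with a GV mean of at least 10 FPKM in CabZ Het, 6 kept a smaller share, among them Mos, the kinase that holds the egg at metaphase II, and the median gene stood at 58.3%. In CabZ KO Plat stood at 5.29% of its GV level, an 18.9-fold lower mean, with 34 of 1937 genes keeping a smaller share and the median gene at 53.6%. The CabZ Het ratio ranged from 111 to 135 and the CabZ KO ratio from 16.2 to 21.8 when each library was left out. With both tables scaled to the genes they share the ratios were 121 and 18.5. These ratios join 2 tables and carry no test, and fewer molecules per cell cannot be told apart from a larger total of other mRNAs. The libraries were made from captured mRNA, and the part of poly(A) tail length in the Plat values was not tested.

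**Figure D3:**
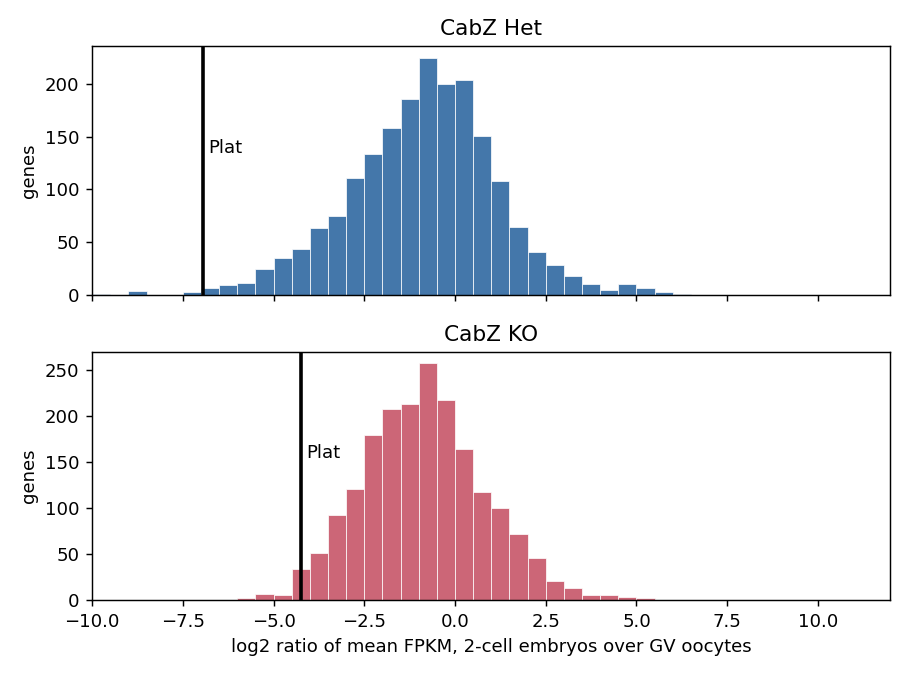
Number of genes by the log2 ratio of mean FPKM in 2-cell embryos over GV oocytes, for genes with a GV mean of at least 10 FPKM, in CabZ Het (top) and CabZ KO (bottom). The black line marks Plat, which stands at 0.810% of its GV level in CabZ Het, beyond all but 6 of 1932 genes, and at 5.29% in CabZ KO.

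Other transcripts lost between the stages did not rise together in the mutants. They were taken from libraries outside the CabZ line: 185 of 1566 genes at or above 10 FPKM in ZH Het GV oocytes were at least 16-fold lower in GFP 2-cell embryos, Plat (151-fold) among them. Of the other 184, 153 were tested in CabZ 2-cell embryos, where 19 were called higher and 46 lower, beside 16.9% and 20.4% of all genes. Their median difference was -0.33, beside -0.11 for all genes, and 13 of them rose further than Plat. In CabZ GV oocytes 175 of these transcripts were tested, with a median of -0.11 beside -0.02 for all genes. None was called higher and 1 lower, beside 2.07% and 0.836% of all genes. In ZH GV oocytes 44 of the 184 were called lower and 9 higher, beside 7.20% and 10.5% of all genes, with a median of -0.56 beside -0.04.

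Of the 14 oocyte markers tested in the same CabZ KO embryos, 13 lay higher and 6 of them were called. Of the 18 markers listed 17 were in the table and 14 were tested, and none was called lower, beside 16.9% of all genes called higher and 20.4% lower. The median was 0.97, beside -0.11 for all genes, and 8 were not called. Those called higher included Ooep, a subunit of the subcortical maternal complex (2.64, adjusted p = 0.00092 by limma), the oocyte linker histone H1foo (2.03, adjusted p = 0.0029) and the growth factor Gdf9 (1.89, adjusted p = 0.0016). Summed over the list, these markers were at 5039 to 8799 CPM in CabZ KO and at 2066 to 3423 in CabZ Het embryos. The summed 2-cell markers overlapped between the groups, at 2211 to 6872 in CabZ KO and 3436 to 5234 in CabZ Het. Granulosa markers summed to 131 to 170.3 CPM in CabZ KO and to 110.3 to 125 in CabZ Het, but the list moved in both directions. By mean, Kitl, Cdh2, Cyp19a1, Fshr, Nr2f2, Fst, Wt1, Cyp11a1, Star and Nr5a1 were higher in CabZ KO embryos. Nr5a2, Gja1, Amhr2, Foxl2, Hsd17b1 and Hsd3b1 were lower. The CabZ KO embryo library with the lowest 2-cell sum and the highest oocyte sum, replicate 4, had the second highest Plat. Replicate 1, with the highest Plat, had the highest granulosa sum. Without replicate 4 the difference of Plat was 1.39 (limma adjusted p = 0.0012). The part of these markers in the Plat difference was not tested.

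In the parthenogenetic embryos Plat was low in both groups. The 4 GFP libraries were at 0.978, 0.583, 0.410 and 0.471 FPKM (0.610 ± 0.255, n = 4) and the 3 libraries labelled Zscan4 OE at 0.510, 2.46 and 0.897 FPKM (1.29 ± 1.03, n = 3). The groups overlapped, and library B (1279 reads) accounted for most of the higher mean in those labelled Zscan4 OE. Since Plat was below the filter of 1 FPKM here, it was tested alone: the difference on the log2(FPKM + 1) scale was 0.43 (two-sided exact permutation p = 0.343, where the smallest possible p is 0.0571). Without library B it was 0.08. As Zscan4d was not higher under the label at this stage, no direction is read from this contrast, in which 1.44% of 4293 genes were called, 0.0233% higher and 1.42% lower.

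The other members of the plasminogen system were mostly below the filter. Of the 37 other genes listed, 28 were in the ZH GV table, 21 in the CabZ GV table, 30 in the CabZ 2-cell table and 16 in the table of injected embryos, but only 6, 7, 5 and 2 reached a mean of 1 FPKM and were tested. The other activator, urokinase (Plau), was not analysed here. Plasminogen itself (Plg), the substrate of Plat, was at 0.00401 ± 0.00177 FPKM in ZH Het and 0.0263 ± 0.0139 in ZH KO, without overlap but too low to test, and at 0.00977 and 0.00540 in CabZ Het and CabZ KO GV oocytes. Plaur, the urokinase receptor, was at or below 0.454 FPKM in every group mean.

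Serpine2 (protease nexin 1), which inhibits both activators, had the highest level of the named inhibitors in GV oocytes and was lower in ZH KO. It was at 6.94 ± 1.26 FPKM in ZH Het and 3.16 ± 1.73 in ZH KO (log2 difference -1.0, SE 0.25, limma adjusted p = 0.009). In this comparison 7.20% of genes were called lower. In CabZ GV oocytes Serpine2 was at 6.21 ± 0.747 in Het and 4.45 ± 0.672 in KO, a difference of -0.41 that did not pass (adjusted p = 0.055). In 2-cell embryos it was below the filter, at 0.345 ± 0.0847 FPKM in CabZ Het and 1.14 ± 0.465 in CabZ KO, without overlap. Per kilobase of transcript, Serpine2 stood at 188 and Plat at 558 in CabZ Het GV oocytes. The inhibitors Serpini1 (neuroserpin) and Cpb2 (carboxypeptidase B2) stayed at or below 2.26 FPKM in every group mean, and neither was called in any comparison.

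Among receptors and cofactors, the 2 subunits of the annexin A2 complex, which binds Plat at the cell surface, were at or below 2.51 FPKM in every GV group mean measured. S100a10 rose in CabZ KO embryos, from 1.13 ± 1.16 to 6.47 ± 2.67 FPKM (1.88, adjusted p = 0.0046), while its partner Anxa2 was at 0.496 ± 0.227 and 0.419 ± 0.229 FPKM. In ZH oocytes Anxa2 was at 0.894 ± 0.153 FPKM in Het and 2.51 ± 0.810 in KO, a difference of 0.86 that stayed under the fold threshold (adjusted p = 0.004). Anxa2 passed the filter of 1 FPKM there only through the ZH KO libraries, so this adjusted p holds only among genes that passed it. The glycolytic enzyme Eno1, which can also act as a plasminogen receptor, was lower in ZH KO (-1.02, adjusted p = 0.00044), at 3.55 ± 0.749 against 1.23 ± 0.219 FPKM. The chaperone Calr, on the list of receptors and cofactors, was called in none of the 4 comparisons. Among the listed substrates Mmp2, a matrix protease, rose in CabZ KO embryos from 1.35 ± 0.216 to 4.19 ± 0.929 FPKM (1.13, adjusted p = 0.001), and was not called elsewhere. Over the 4 lists together, 2 of 6 tested genes were called lower and none higher in ZH oocytes, where 7.20% and 10.5% of all genes were, with a median of -0.54 beside -0.04. None of 7 was called in CabZ oocytes, where 2.90% of all genes were (median -0.20 beside -0.02). In CabZ embryos 2 of 5 were called higher and none lower, where 16.9% and 20.4% of all genes were (median 0.90 beside -0.11). None of 2 was called in the injected embryos, where 1.44% of all genes were (median 0.26 beside 0.03).

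The other dormant maternal mRNAs moved in both directions. Of 29 listed besides Plat, 26 were tested in ZH oocytes, where 7 were called lower and none higher, beside 7.20% and 10.5% of all genes. Of the 26, 19 lay below 0, with a median of -0.69 beside -0.04 for all genes. Those called were Mos, Btg4, Cnot7, Dcp1a, Bub1b, Bcl2l10 and Obox5. Btg4, an adaptor of the deadenylase that clears maternal mRNA, fell by 1.97 on the log2 scale (adjusted p = 4e-06), from 43.6 ± 3.29 to 10.4 ± 1.16 FPKM. Cnot7, the catalytic subunit of that deadenylase, fell by 1.19 (adjusted p = 0.0013), and Mos fell by 1.12 (adjusted p = 0.00042). The spindle checkpoint kinase Bub1b fell by 1.85 (adjusted p = 0.0001) and the decapping activator Dcp1a by 1.35 (adjusted p = 0.00014). Bcl2l10, an oocyte survival factor, fell by 1.19 (adjusted p = 0.0042), and the oocyte homeobox gene Obox5 by 1.02 (adjusted p = 0.0036). Ccnb1 was at 191 ± 22.1 and 103 ± 14.6 FPKM, a difference of -0.89 that stayed under the fold threshold (adjusted p = 0.00089). Dazl, an RNA-binding translational activator of maturation, was higher in ZH KO by 0.93 and also stayed under it (adjusted p = 0.005). In CabZ GV oocytes none of 27 tested was called, where 2.90% of all genes were (median -0.04 beside -0.02).

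In CabZ 2-cell embryos 24 of these mRNAs were tested, 7 were called higher and 5 lower, beside 16.9% and 20.4% of all genes, so that the share called lower stood near the background. The median was 0.01 beside -0.11 for all genes. Mos rose by 2.92 (SE 0.53, limma adjusted p = 0.0016), from 1.65 ± 2.07 to 17.3 ± 9.08 FPKM. The other mRNAs that rose with Plat were Dazl (1.88), the zona pellucida gene Zp2 (1.58), Cnot7 (1.29), Btg4 (1.27), the decapping enzyme Dcp2 (1.16) and Il7 (1.03), with adjusted p-values between 0.00036 and 0.0064. The mRNAs that fell were Ccnb1, Aurka, Ccna2, Tpx2 and Tex19.1, a germ cell gene. Ccnb1 fell by 1.68 (adjusted p = 0.00028), Aurora kinase A (Aurka) by 1.68 (adjusted p = 0.00088) and cyclin A2 (Ccna2) by 1.09 (adjusted p = 0.0027). Tpx2 fell by 1.19 (adjusted p = 0.00091) and Tex19.1 by 1.39 (adjusted p = 0.0081). In CabZ Het, Ccna2 and Tex19.1 had higher means in 2-cell embryos (47.4 and 42.7 FPKM) than in GV oocytes (16.6 and 21.9 FPKM). Ccnb1, Aurka and Tpx2 had lower means in the embryos. These levels come from separately normalized tables and carry no test. Of the mRNAs with a CPE printed above, Plat and Btg4 rose and Ccnb1 and Tpx2 fell. Mos, Dazl and Cnot7, in which no CPE was found, rose. The part of the CPE in these directions was not tested. In injected embryos none of 23 tested was called, where 1.44% of all genes were (median 0.13 beside 0.03).

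**Figure D4:**
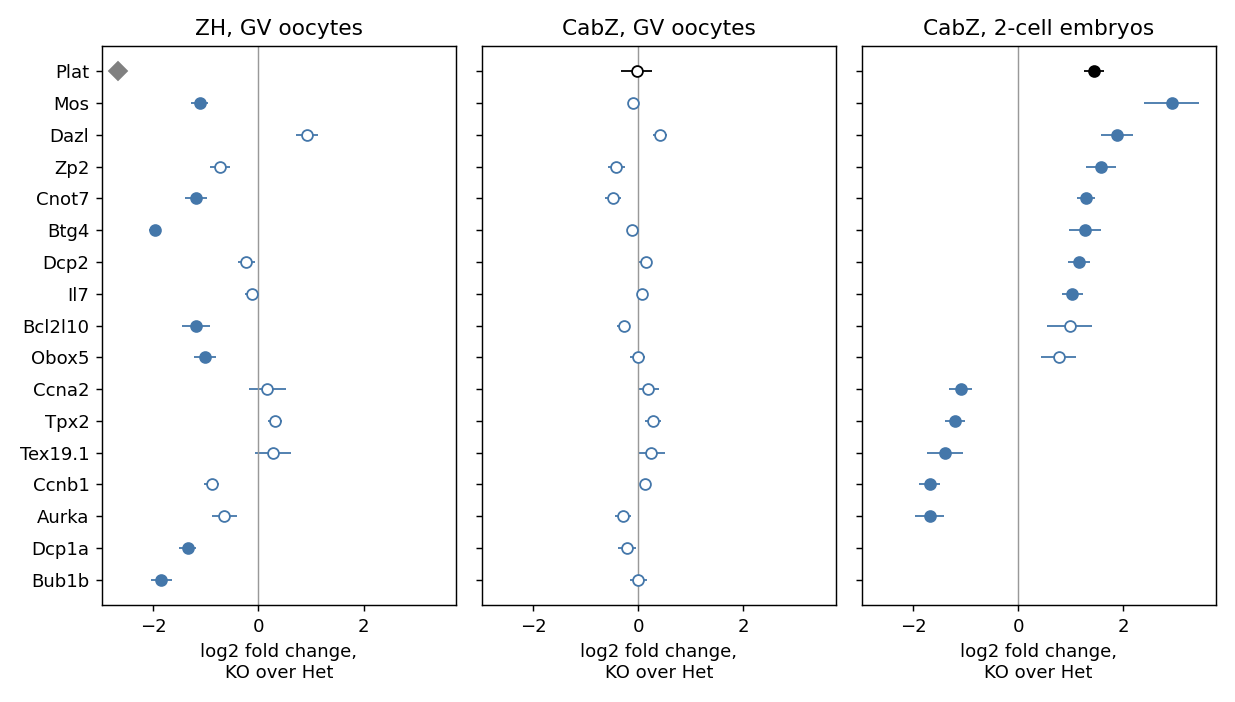
Log2 fold change of KO over Het, fitted on log2(FPKM + 1), for Plat and the named dormant maternal mRNAs in ZH GV oocytes, CabZ GV oocytes and CabZ 2-cell embryos. Points are fitted values with their standard error, filled where called, and the grey diamond is the untested value of Plat in ZH (-2.67), while in CabZ 2-cell embryos Plat (1.45) rises with 7 of the mRNAs and 5 fall (Dcp1a and Bub1b, below the filter there, have no point).

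The machinery that stores and polyadenylates these mRNAs was described from a list of 38 genes. In ZH oocytes 6 of 19 tested were called lower and none higher, beside 7.20% and 10.5% of all genes, with a median of -0.58 beside -0.04. They were Zar1 (-1.24, adjusted p = 0.023) and Lsm14b (-1.02), which act in the storage of maternal mRNA, Eif4enif1 (-1.41), an eIF4E-binding repressor, and Fip1l1 (-1.12), a subunit of the polyadenylation complex. The poly(A) polymerase Papolg (-1.21) also fell, and Btg4, on both lists, was the sixth. Cpeb1, the CPE-binding protein itself, was at 3.30 ± 0.492 FPKM in ZH Het and 2.24 ± 0.952 in ZH KO, with overlap (-0.44, adjusted p = 0.077). In CabZ GV oocytes none of 20 tested was called, where 2.90% of all genes were (median -0.05 beside -0.02). Cpeb1 was there at 3.00 ± 0.466 FPKM in CabZ Het and 2.88 ± 0.864 in CabZ KO.

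In CabZ 2-cell embryos 5 of 20 tested machinery genes were called higher and 4 lower, shares near the 16.9% and 20.4% of all genes (median 0.02 beside -0.11). Of these, Dazl, Btg4 and Aurka are on both lists. Zar1 rose by 1.70 (adjusted p = 0.0026), the oocyte eIF4E variant Eif4e1b by 1.24 (adjusted p = 0.0024) and Ybx2, a germ cell protein that coats stored mRNA, by 1.08 (adjusted p = 0.0015). The mitotic kinase Cdk1 fell by 2.03 (adjusted p = 0.00031), the poly(A)-binding protein Pabpc1 by 1.80 (adjusted p = 0.00022) and the poly(A) polymerase Papola by 1.02 (adjusted p = 0.0027). Cpeb1 was below the filter there, at 0.104 ± 0.0171 FPKM in CabZ Het and 0.183 ± 0.0292 in CabZ KO. In injected embryos none of 12 tested was called, where 1.44% of all genes were (median 0.21 beside 0.03).

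Genes most like Plat across GV libraries can be read in embryos, whose libraries took no part in choosing them. In CabZ 2-cell embryos Gm6768 was called higher (1.29, adjusted p = 0.0018). G6pdx (0.95, adjusted p = 0.0066) and Gm38025 (0.80, adjusted p = 0.0016) were higher but under the fold threshold. Gja4 (1.02, adjusted p = 0.073) and AU022751 (-0.67, adjusted p = 0.15) did not pass the test. Per kilobase of transcript in CabZ Het GV oocytes, Plat (558) stood near Mos (623) and Ccnb1 (752), above Dazl (358) and Gja4 (263), and below Btg4 (3218).

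Of the 12 other genes measured within 250 kb of Plat, only Ap3m2, Polb, Vdac3, Ikbkb and Gm26909 reached the filter in any comparison. Of those, 1 was called. The share of all genes called in either direction was 17.7% in ZH oocytes, 2.90% in CabZ oocytes, 37.4% in CabZ embryos and 1.44% in injected embryos. Ap3m2, a subunit of the AP-3 vesicle adaptor that lies 4510 bp beyond the end of Plat, was at 2.51 ± 0.345 FPKM in ZH Het and 1.54 ± 0.428 in ZH KO (-0.47, adjusted p = 0.023, under the fold threshold) and was not called elsewhere. The DNA repair polymerase Polb differed by -0.31 (adjusted p = 0.058), the mitochondrial channel Vdac3 by -0.19 (adjusted p = 0.2) and the kinase Ikbkb by 0.05 (adjusted p = 0.84) in ZH. Ikbkb passed the filter only through ZH KO, as its ZH Het mean was 0.963 FPKM. The uncharacterized Gm26909, 111441 bp before Plat, rose in ZH KO from 3.31 ± 1.91 to 42.6 ± 8.28 FPKM (3.43, adjusted p = 3e-05) and in CabZ KO embryos from 18.8 ± 5.30 to 105 ± 22.8 FPKM (2.45, adjusted p = 0.0002). In CabZ KO oocytes it differed by 0.75 (adjusted p = 0.19). Thus in ZH oocytes its direction was opposite to that of Plat, and in CabZ embryos it was the same. In the CabZ 2-cell table Ap3m2, Polb and Vdac3 differed by -0.15, 0.17 and 0.41, and none was called. The other genes in the window (Ank1, Dkk4, Gm10043, Gm45555, Kat6a, Slc20a2 and 1700041G16Rik) were below 1 FPKM in every group mean.

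ATAC-seq peaks that overlapped the 500 bp to each side of the Plat start site were seen in both CabZ genotypes. Peaks were called by the authors in each library alone, and 4 of the 6 libraries had one that overlapped this window. In library B of CabZ Het the peak covered chr8:22757241-22760212 with a fold enrichment of 5.82, and library C had chr8:22756914-22760113 with 6.16. For the mutants, library B covered chr8:22757215-22757604 with 4.05 and library C chr8:22756854-22757745 with 4.92. CabZ Het A and CabZ KO A had none there or in the gene. The summits lay at -108 and -94 bp from the start site in Het B and C, and at -408 and -809 bp in KO B and C. The KO B peak ended at -123 bp, so it did not reach the start site itself, and the KO C summit lay outside the window. At a −log10 q of at least 5, a limit added after seeing the data, the 2 CabZ Het peaks were left. The 2 Het peaks were wider, at 2972 and 3200 bp, than the 2 KO peaks, at 390 and 892 bp, although KO B held a further peak from chr8:22759295-22760101 (4.95) within the stretch that the Het peaks covered. A region further inside the gene was also shared, at chr8:22761449-22762740 in Het B (5.46) and chr8:22761454-22762660 in KO B (4.50).

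The peak sets differed in size, which limits this comparison. CabZ Het libraries held 43399, 67074 and 111327 peaks and CabZ KO libraries 46070, 19160 and 29600. Of the 19032 genes compared, 11.0%, 22.1% and 39.3% had a start site peak over the CabZ Het libraries in that order, and 16.7%, 5.32% and 6.87% over the CabZ KO libraries. Plat thus had a peak in the 2 KO libraries with the fewest peaks. Its peak stood above 96.2% and 97.4% of all peaks in fold enrichment in Het B and C, and above 11.1% and 71.0% in KO B and C. With 3 libraries against 3 no test was made.

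**Figure D5:**
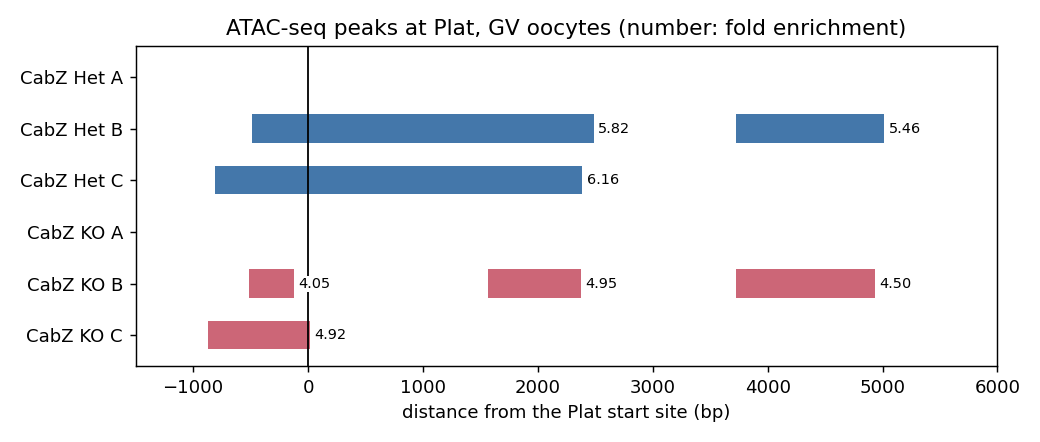
ATAC-seq peaks in each CabZ GV library by distance from the Plat start site in bp, with Het in blue, KO in red and the fold enrichment beside each bar. Peaks that overlap the 500 bp to each side of the start site are present in Het B (5.82), Het C (6.16), KO B (4.05) and KO C (4.92) and absent in both A libraries.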

How the data were processed

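RNA was amplified with the Smart-seq2 v4 kit and sequenced as paired reads. Reads were aligned by the authors with STAR 2.5.3a to mm10 (per the labels). The ZH and injected embryo tables were deposited by the authors as FPKM over the gene span with a small constant added. Both CabZ tables were deposited by the authors as a score, reads divided by the span a second time, from which FPKM were restored with the span, so the planned FPKM test was run on restored values. The ATAC-seq files hold the fold enrichment ratio and the −log10 p and q of MACS2 peaks called per library by the authors. From low values, between 85.0% and 89.9% of which were whole reads within 0.1, reads per gene were recovered. Plat, the lists and the comparisons were chosen with earlier results of these data known. Each table was fitted alone with limma 3.58.1 (R 4.3.3) on log2(FPKM + 1), leaving out genes whose mean was under 1 FPKM and using no covariates. A call needed an adjusted p (Benjamini-Hochberg) below 0.05 together with more than a 2-fold change. Alternatives were other pseudocounts, filters and scalings, the replicate block and each library left out. Named were Plat, plasminogen system genes at 1 FPKM or more with Plg, Plaur and Plau (which has no value analysed here), dormant and machinery genes called in any table with Mos, Ccnb1, Tpx2, Dazl, Cnot7, Btg4, Cpeb1 and Ybx2, genes within 250 kb and the 5 most like Plat. A gene on 2 lists counts on both. A further gene that the rule names is not reported here. The fits were checked on simulated data. Gene models without a stated role are predicted loci whose reads may be shared with copies.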

Additional observations from a re-analysis of the deposited data

Results flagged for a closer look

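Replicate 2 of ZH KO GV oocytes, at 51.2 FPKM of Plat, stood apart from the other 3 mutant libraries (4.99, 9.28 and 11.4 FPKM), with a gap to the nearest of them of 0.861 of the whole range of the group. A gap of this size in 4 libraries arises by chance in about 1 of 20 groups, and 7 groups were examined. As the ZH values chose Plat, this is a description and no test is read from it.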

How the results depend on the processing

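The difference of Plat in ZH GV oocytes stayed between -2.26 and -3.30 under every alternative tried, the range set by leaving out each library. In CabZ GV oocytes it was called under none, ranged from -0.23 to 0.23 with each library left out, and reversed to 0.11, 0.23 and 0.05 without Het replicate 3, KO replicate 3 and KO replicate 4 and to 0.01 with the values as deposited. In CabZ 2-cell embryos Plat was called under every alternative in which it was tested except the values as deposited (0.01), which are small beside the pseudocount of 1. A pseudocount of 0.1 gave 2.46, and the filter of 5 FPKM removed Plat. In the embryos labelled Zscan4 OE it ranged from 0.08 to 0.68 with each library left out, and quantile normalization, the trend and the filter of 5 FPKM gave no value for a gene tested alone. Other alternatives for the ATAC-seq peaks were added after seeing the data: with −log10 q of at least 5, 2 of the 6 libraries kept a start site peak, and with 1000 bp to each side 4 did.

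Same-numbered libraries did not deviate together (r from -0.41 to 0.40 in ZH, from -0.18 to 0.14 in CabZ oocytes, from -0.05 to 0.13 in CabZ embryos and from -0.16 to 0.15 in injected embryos), so the numbers do not pair them. With the replicate block Plat differed by 1.45 in CabZ embryos (adjusted p = 0.0029) and by -0.03 in CabZ oocytes, and the calls fell from 62 to 2 in injected embryos and were 1016, 184 and 2886 elsewhere. Calls moved by over 1.5 times with a pseudocount of 0.1 in ZH (1645 of 5792, from 1023) and CabZ oocytes (328, from 184), with the filter of 5 FPKM (578, 109 and 1650 in ZH, CabZ oocytes and CabZ embryos), with the values as deposited (9 in CabZ oocytes and 317 in CabZ embryos, from 2914), and in injected embryos with no filter (5) and with single libraries left out (18 to 99: 18, 20 and 32 without GFP A, B and C, and 27 and 99 without the libraries B and C labelled Zscan4 OE). Median scaling turned the split in ZH from 606 higher and 417 lower to 471 and 627, with the median of all genes moving from -0.04 to -0.19, and scaling to the reads of the table gave 958 and 372. Of the 42 calls of named genes, none reversed in 659 refits and 63 refits lost the call. Depth limits the 2-cell values, where Plat rests on 80 to 1279 reads.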
